A study of Rattus norvegicus with 24 samples.

Results

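Forebrain RNA of rats given 5, 20 or 50 mg/kg D-serine was compared with that of rats given 200 or 500 mg/kg, with the doses of each side pooled. The lower-dose pool holds 12 of the series' 24 arrays, and the higher-dose pool holds 7. Arrays were placed in a pool by the dose in their titles. The array of the rat labelled Animal #251 (500 mg/kg, replicate 4) was left out, and the 4 vehicle arrays entered no fit and are given beside the results. All animals were F344 males, 11-12 weeks old, and each was given D-serine or vehicle and killed 96 h after the dose. Each of the 6 groups (vehicle and 5 doses) holds 4 rats with 1 Affymetrix rat expression array per rat, so replicates are separate animals. A small piece of forebrain was used per rat, and the labels do not say which regions it held. Animal numbers run in blocks from vehicle (243 to 246) through 500 and 200 mg/kg to the lower doses (257 to 271), so a pool cannot be told apart from any handling that followed that order.

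D-serine is the mirror form of the amino acid L-serine. In the forebrain it is made from L-serine by serine racemase, is broken down by D-amino acid oxidase, and binds NMDA-type glutamate receptors at the glycine site, which has to be occupied for glutamate to open the channel. In rats, high doses are also known for injury to the kidney. Synaptic vesicle proteins, AMPA and GABA-A receptors and the postsynaptic scaffold are among the partners and targets of this signalling in neurons.

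The left-out array stood apart from the rest. Its median correlation with the other arrays over probe sets was 0.858, against 0.957 to 0.971 for every other array, and its mean level of cerebellar marker genes was 11.05 on the log2 scale, against 7.26 to 7.96 on the 19 pooled arrays. Median deposited intensity was 67.8 to 103.8 on the lower-dose arrays and 56.7 to 68.4 on the higher-dose arrays, and arrays were brought to one scale by quantile normalization. On the pooled arrays the excitatory neuron markers of cortex and hippocampus averaged 8.496 to 9.04 at the lower doses and 8.67 to 8.86 at the higher doses. The tissue was bulk, so fewer cells of a type and less RNA per cell cannot be told apart.

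Values are log2(intensity + 16), and a difference is the mean of the lower doses minus that of the higher doses with its standard error. "Rose", "fell" and "passed" are used of a limma adjusted p under 0.05 (Benjamini-Hochberg over all 18625 probe sets tested). Of these, 1639 passed (8.8%), with 1011 higher at the lower doses (5.43%) and 628 lower (3.37%), and 4423 had an unadjusted p under 0.05. Thus 61.7% of the calls were higher at the lower doses. On the values as deposited, where the median of all probe sets was itself 0.29 higher at the lower doses, 10247 probe sets passed and 99.9% of them were higher. Each gene was represented by its brightest probe set. Of 10213 genes 600 passed (5.87%), 307 as rises (3.01%) and 293 as falls (2.87%). The differences were small, with a median of 0.35 among the probe sets that rose and -0.28 among those that fell. Of the 600 genes, 14 exceeded 1.5-fold. The count of probe sets depended on single groups and arrays: it was 833 without the 5 mg/kg arrays, 671 without 20, 510 without 200 and 341 without 500 mg/kg, and 1082 and 1044 without 200 mg/kg replicates 1 and 2. It was higher without the 50 mg/kg arrays (1274 rises and 877 falls) and without 50 mg/kg replicate 1 (1320 rises and 870 falls).

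The doses within a pool were compared with each other in a separate fit of the 5 dose means to the same values. The moderated F test of 20 and 50 against 5 mg/kg and of 500 against 200 mg/kg called 0 of 18625 probe sets, with 1055 below 0.05 unadjusted. Leaving out 5 mg/kg replicate 1 or 50 mg/kg replicate 4 gave 1 call. With dose as a random block the correlation within doses was -0.03.

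The guanine nucleotide exchange factor Rasgrp1, which activates Ras in response to diacylglycerol and calcium, had the largest difference of the genes whose pools did not overlap. Its level was 8.40 at the lowest, 8.95 at the median and 9.26 at the highest of the 12 lower-dose arrays, and 7.68, 8.03 and 8.39 in the same order on the 7 higher-dose arrays. Every lower-dose array was above every higher-dose array. The means ran 9.06, 8.95 and 8.83 at 5, 20 and 50 mg/kg, and 8.09 and 8.06 at 200 and 500 mg/kg. The difference was 0.87 ± 0.10 (adjusted p = 5.7e-05), or 1.83-fold, and the second Rasgrp1 probe set differed by 0.66 ± 0.10 (adjusted p = 0.000187). The 4 vehicle arrays had 8.04, 7.71, 7.88 and 7.76, within the range of the higher doses.

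Genes of the synaptic vesicle cycle were among the rises. Of 25 measured genes in the list of vesicle release and recycling 6 rose and 0 fell, against 3.01% and 2.87% of all genes, while the median of the list was 0.03 beside -0.01 for all genes. Syt1, the calcium sensor of fast transmitter release, ranged from 9.04 to 10.19 with a median of 9.88 at the lower doses, and from 8.55 to 9.46 with a median of 9.003 at the higher doses. The pools overlapped, and the difference was 0.82 ± 0.14 (adjusted p = 0.00095). Syt11, a synaptotagmin that does not bind calcium, had 7.16 to 7.82 at the lower doses and 6.84 to 7.05 at the higher doses, with no overlap and a difference of 0.53 ± 0.07 (adjusted p = 0.00014). The vesicle membrane proteins Svop and Syngr3 rose by 0.59 ± 0.11 and 0.40 ± 0.06. Sh3gl2, the endocytic protein endophilin A1, rose by 0.51 ± 0.13 (adjusted p = 0.0167), a call that was lost without 200 mg/kg replicate 1 (adjusted p = 0.0517). The abundant core proteins of the same list did not pass, with differences of -0.06 for Snap25, -0.14 for Vamp2, -0.03 for Syp and 0.07 for Syn1. Some presynaptic genes fell. Prrt2, which regulates the release machinery, fell by 0.57 ± 0.13 (adjusted p = 0.0103), and Ston2, an endocytic adaptor for synaptotagmin, fell by 0.51 ± 0.11 (adjusted p = 0.00397).

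**Figure D1:**
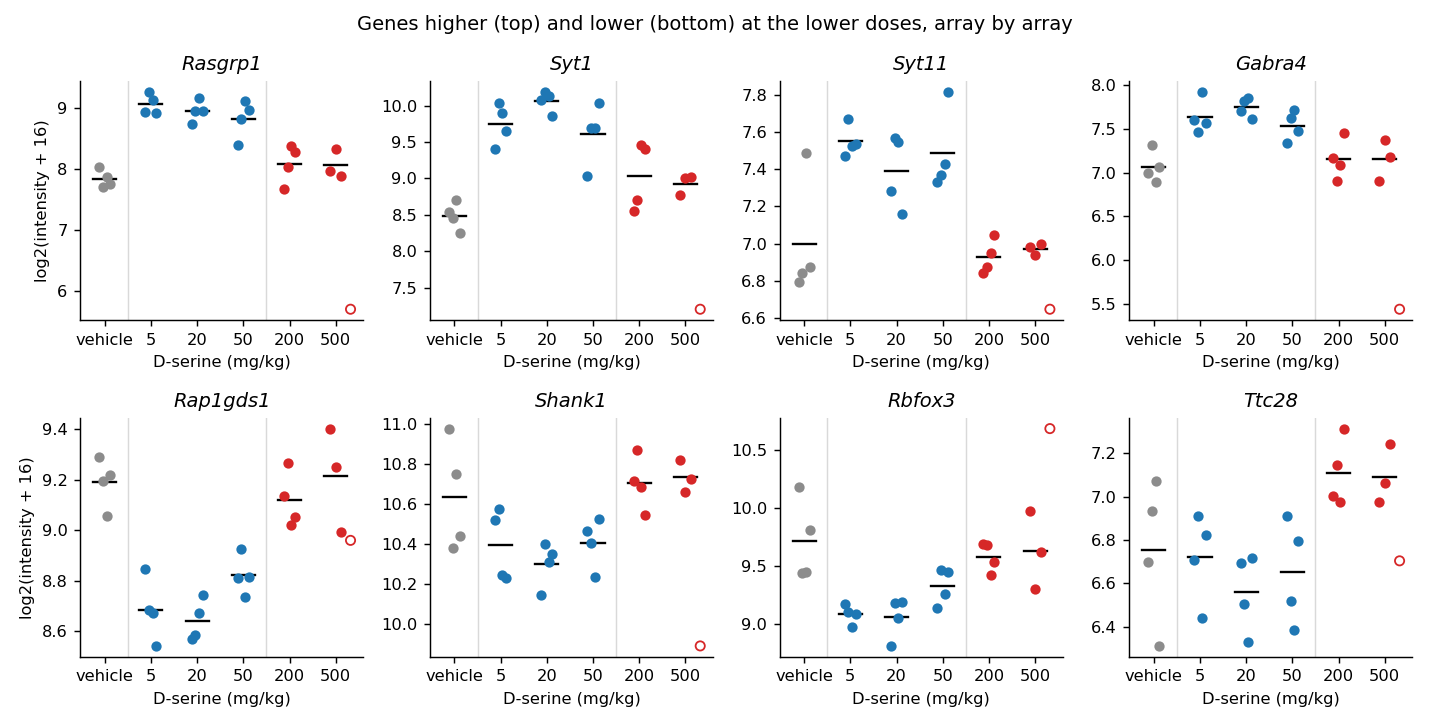
Level of 8 genes on each array, as log2(intensity + 16), by dose from vehicle (grey) through the lower doses (blue) to the higher doses (red). Bars are means of the plotted filled points, and the open circle is the left-out array. Rasgrp1 is at 8.40 or above on every lower-dose array and at 8.39 or below on the 7 higher-dose arrays, while Rap1gds1 and Ttc28 show the opposite order without overlap.

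Among receptors, 2 of 11 measured genes of the AMPA receptor and its assembly rose and 0 fell, against 3.01% and 2.87% of all genes, with a list median of -0.12. Frrs1l, needed to assemble the receptor in the endoplasmic reticulum, had a median of 7.12 at the lower doses and 6.54 at the higher doses and rose by 0.66 ± 0.14 (adjusted p = 0.006). Cacng3, an auxiliary subunit that traffics the receptor, rose by 0.50 ± 0.13 (adjusted p = 0.015). The pore-forming subunits differed by -0.12 (Gria1), -0.13 (Gria2), -0.19 (Gria3) and -0.33 (Gria4), and none of them passed. Of 13 measured genes of NMDA receptors and D-serine handling 0 passed in limma, and 2 (Grin3a and Grin2a) were below 0.05 unadjusted. Over all genes, 2083 of 10213 were below 0.05 unadjusted in a limma fit with 1 probe set per gene. Grin1, the obligatory subunit, averaged 8.95 at the lower doses and 8.86 at the higher doses, a difference of 0.09 ± 0.07. Grin2a differed by -0.23 ± 0.11 and Grin2b by 0.10 ± 0.08. The dimmer probe sets of Grin1 (-0.24 ± 0.11) and Grin2a (0.41 ± 0.16 and -0.004 ± 0.09) did not all share these signs. That of Grin2b differed by 0.11 ± 0.10, and none of these dimmer probe sets passed. The D-serine transporters Slc7a10 and Slc1a4 differed by -0.18 ± 0.10 and -0.03 ± 0.13. Srr and Dao, which encode the enzymes that make and break down D-serine, were not among the genes measured here above the filter on dim probe sets.

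Of 8 measured GABA-A receptor subunits 2 rose and 0 fell, against 3.01% and 2.87% of all genes. Gabra4 had 7.34 to 7.92 at the lower doses and 6.90 to 7.45 at the higher doses, with a small overlap, and rose by 0.49 ± 0.09 (adjusted p = 0.00102). Vehicle averaged 7.06 ± 0.18 (SD, n = 4). Gabrg1 rose by 0.30 ± 0.09 (adjusted p = 0.0309), a call lost without any of 200 mg/kg replicates 1 and 2 and 500 mg/kg replicates 1 and 3, with adjusted p up to 0.0816. Among potassium channels 2 of 23 measured genes rose, against 3.01% of all genes, Kcnq3 by 0.34 ± 0.09 and Kcnj9 by 0.41 ± 0.11. Neither call held without 200 mg/kg replicate 2 or without 500 mg/kg replicate 3, with adjusted p up to 0.0569 for Kcnq3 and 0.0608 for Kcnj9.

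In the postsynaptic density 1 of 17 measured genes rose and 2 fell, against 3.01% and 2.87% of all genes. Below 0 lay 13 of the 17, and 5455 of all 10213 genes. Shank1, a scaffold of the density, had 10.15 to 10.58 at the lower doses and 10.54 to 10.87 at the higher doses and fell by 0.35 ± 0.06 (adjusted p = 0.000672). Its other probe sets, which are dimmer, differed by 0.15 ± 0.12 and 0.20 ± 0.12. Camk2a, the calcium/calmodulin kinase subunit of excitatory synapses, fell by 0.37 ± 0.07 (adjusted p = 0.00249), and its 2 other probe sets differed by -0.35 and -0.20. With the left-out array included, the Camk2a difference was 0.15 and did not pass. Dlg2, another scaffold, rose by 0.46 ± 0.11 (adjusted p = 0.014). Akap5, which anchors protein kinase A at the synapse and is not in that list, fell by 0.48 ± 0.13 (adjusted p = 0.0263), and this call was lost without any of 4 higher-dose arrays (200 mg/kg replicates 1 and 2, 500 mg/kg replicates 2 and 3), with adjusted p up to 0.0739.

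The other large rises came from several groups of genes. The calcium-handling genes Atp2b4, a plasma membrane calcium pump, and Necab1, a neuronal calcium-binding protein, each rose by 0.62 (SE 0.13 and 0.12). Tbr1, a transcription factor of cortical excitatory neurons, had 5.79 to 6.98 at the lower doses and 5.63 to 6.02 at the higher doses and rose by 0.66 ± 0.13 (adjusted p = 0.00287). Its higher-dose mean of 5.84 lay below the filter level of 5.98. Of the 16 measured excitatory neuron markers 1 rose (Tbr1) and 1 fell (Camk2a), against 3.01% and 2.87% of all genes. In that list 10 lay above 0 and 6 below, with a median of 0.04. Cyria, a Rac1-binding regulator of actin, rose by 0.77 ± 0.15, and Akirin2, a nuclear adaptor, rose by 0.58 ± 0.10 with no overlap between pools. Actr2-ps1 rose by 0.62 ± 0.09 without overlap. It is annotated as a pseudogene of Actr2, so its probe set may also read the parent gene. Cnbd2 (0.76), Entr1 (0.60), Snapc5 (0.52), Sprn (0.51), Kpna1 (0.51) and Faim2 (0.51) were also among the 20 largest rises. Another probe set of Snapc5 also rose (0.63 ± 0.12), but the other probe sets of Cnbd2 (-0.04) and Kpna1 (0.12 and -0.01) did not pass.

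The largest fall among genes was that of Pex6, an ATPase of peroxisomal protein import. It ranged from 5.30 to 6.15 at the lower doses and from 6.11 to 7.17 at the higher doses, and fell by 0.66 ± 0.14 (adjusted p = 0.00605). Its lower-dose mean of 5.82 lay below the filter level of 5.98. Pex6 was thus tested only through its higher-dose mean of 6.48, and the same held for Syt8 (5.89 and 6.33). Rap1gds1, which binds and regulates small GTPases, had 8.54 to 8.93 at the lower doses and 8.99 to 9.40 at the higher doses. The pools did not overlap, and it fell by 0.44 ± 0.06 (adjusted p = 0.00016). Its vehicle arrays had 9.29, 9.19, 9.06 and 9.22, all within the range of the higher doses. Ttc28 fell by 0.46 ± 0.09, also without overlap, and 1 of its 2 other probe sets passed in the same direction (-0.48). Rbfox3, the splicing factor known as NeuN, had a median of 9.15 at the lower doses and 9.62 at the higher doses and fell by 0.45 ± 0.09 (adjusted p = 0.00209), while its other probe set differed by -0.14 ± 0.11. The sodium channel Scn3a, the adhesion molecule Cdh22 and the lysosomal membrane protein Lamp2 fell by 0.43, 0.40 and 0.40. A second Cdh22 probe set passed in the same direction (-0.60), and that of Lamp2 did not pass (-0.15). Fbxl20, a ubiquitin ligase subunit of the presynapse, fell by 0.43 ± 0.09, but its 3 other probe sets differed by 0.23, 0.01 and 0.00. Fam227a, Cc2d2a, Cit, Mtarc2, Itih3 and Donson fell by between 0.41 and 0.50 and Rnf151 by 0.46, the last not without 500 mg/kg replicate 2 (adjusted p = 0.0512). Tpbg and Syt8 passed in 7 of the 19 fits that left out 1 array, with adjusted p up to 0.109 without 200 mg/kg replicate 2 for Tpbg and 0.105 without 200 mg/kg replicate 1 for Syt8. Of the 40 largest rises and falls, 34 passed in each of these 19 fits, and 15 passed in each of the 5 fits that left out a dose. Pex6 passed in 4 of those fits and was not tested in the one without 500 mg/kg.

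In 28 genes (0.274%) no array of one pool overlapped the other, 18 with the lower doses above (0.176%) and 10 below (0.0979%). Besides those named by rule, the 3 rises and the 3 falls with the smallest p values were chosen after their values were seen. Clta, the clathrin light chain, rose by 0.27 ± 0.04 (adjusted p = 0.000109), Wdr83os by 0.39 ± 0.06 and Mmp24, a membrane-bound metalloproteinase, by 0.37 ± 0.06. Khsrp, a splicing and mRNA decay factor, fell by 0.38 ± 0.05 (adjusted p = 0.00014). Relative to the median of all probe sets Larp4b fell by 0.23 ± 0.04 and Pdcd11 by 0.29 ± 0.05, but on the deposited values they differed by 0.07 and 0.01. All 6 passed whichever single array was left out.

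Most measured genes of energy metabolism, protein turnover and RNA splicing did not pass. The counts that follow stand against 3.01% rises and 2.87% falls over all genes. In oxidative phosphorylation 4 of 35 measured genes rose and 3 fell. Atp5pb of the ATP synthase had 11.36 to 11.69 at the lower doses and 11.08 to 11.31 at the higher doses, without overlap, and rose by 0.31 ± 0.05 (adjusted p = 0.00034), and Atp5f1a and Sdha rose by 0.25 and 0.18. Ndufb9 of complex I fell by 0.14 ± 0.03, although it differed by 0.17 on the deposited values. Proteasome subunits had 5 rises and 0 falls among 30, led by Psmd8 (0.25 ± 0.05, adjusted p = 0.00214). In glycolysis 2 of 14 rose and 1 fell. The fall was that of neuronal enolase Eno2, -0.23 ± 0.05, which was 0.08 on the deposited values, and Pgam1 and Tpi1 passed in 7 and 9 of the 19 fits that left out 1 array. Of 24 RNA splicing regulators 0 rose and 4 fell, and 19 lay below 0, with a list median of -0.10. Ddx5, an RNA helicase, fell by 0.25 ± 0.05 (adjusted p = 0.00151), Luc7l3 by 0.19, Clk4 by 0.24 and Rbm5 by 0.21, but all 4 lay above 0 on the deposited values (0.06 to 0.11). Clk4 and Rbm5 passed in 8 and 4 of the 19 fits that left out 1 array, and the other Ddx5 probe set differed by 0.00.

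The remaining lists had few calls, to be read against the same shares of all genes (3.01% rises and 2.87% falls). Ribosomal proteins had 2 rises among 24 (Rpl6 0.19, Rpl14 0.18), and cholesterol synthesis had 2 among 15 (Msmo1 0.24, Fdft1 0.18). Of these, Rpl14 lost its call without 200 mg/kg replicate 1 (adjusted p = 0.054) and Msmo1 without 200 mg/kg replicate 3 or 500 mg/kg replicate 2 (up to 0.0619), and Fdft1 passed in 6 of the 19 fits that left out 1 array. Motor proteins had 1 rise among 16 (Dync1li1, 0.29 ± 0.06). Rab4a fell among 23 Rab GTPases by 0.24 ± 0.05 relative to the median of all probe sets, without overlap, and was 0.06 on the deposited values. Jund fell among 23 immediate-early genes by 0.22 ± 0.06 (0.08 on the deposited values), and lost its call without 200 mg/kg replicate 1 or 500 mg/kg replicate 3 (adjusted p up to 0.0659). Fos differed by -0.23 ± 0.22, Arc by -0.02 ± 0.15 and Bdnf by 0.09 ± 0.16, and none of these passed. Heat shock and DnaJ chaperones (22), chromatin regulators (25), collagens and other matrix genes (23) and glucocorticoid-responsive genes (10) had 0 calls in limma among the measured members given in brackets, with 4, 3, 4 and 0 of them below 0.05 unadjusted. Over all genes, 2083 of 10213 were below 0.05 unadjusted in a limma fit with 1 probe set per gene.

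**Figure D2:**
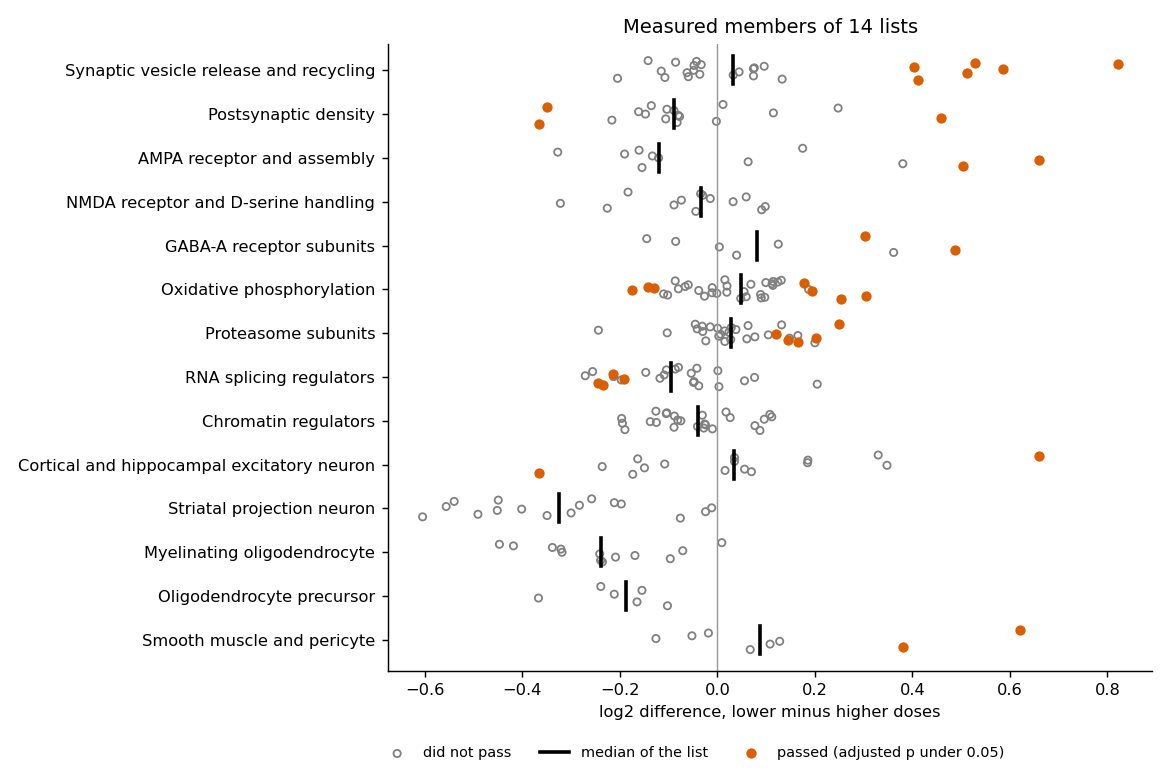
Difference of lower minus higher doses (log2) for the measured members of 14 lists, each point 1 gene and each bar the list's median. Filled points passed. The vesicle list holds 6 filled points above 0 and 0 below, and all 16 striatal markers lie below 0 without a filled point.

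Markers of regions and cell types were set beside these results. Their calls stand against 3.01% rises and 2.87% falls over all genes. Their signs stand against 4758 of all 10213 genes above 0 and 5455 below. Their counts below 0.05 unadjusted stand against 2083 of the 10213 genes in a limma fit with 1 probe set per gene. All 16 measured striatal projection neuron markers lay below 0, from -0.60 to -0.01 with a median of -0.32, and 0 passed. Their mean level spread widely within each pool, 7.64 to 9.52 at the lower doses, 7.81 to 9.38 at the higher doses and 8.40 to 9.76 in vehicle. Of 13 myelin markers 12 lay below 0 (median -0.24) and all 6 oligodendrocyte precursor markers did (median -0.19), and 0 of either passed, while 1 striatal, 3 myelin and 1 precursor marker were below 0.05 unadjusted. Thalamic markers lay above 0 in 9 of 10 (median 0.12) and cerebellar markers in 8 of 9 (median 0.08), again with 0 calls in limma, 0 thalamic and 2 cerebellar markers being below 0.05 unadjusted. With the Gapdh 3' to 5' ratio in the model the list medians were 0.28 (striatal), 0.01 (myelin), -0.14 (precursor), 0.09 (thalamic) and 0.20 (cerebellar). Ttr, the defining choroid plexus gene, ranged from 5.88 to 13.02 at the lower doses and from 6.51 to 12.84 at the higher doses, with a difference of -1.54 ± 0.96. Of the 7 measured choroid plexus and ependyma markers 3 lay above 0 and 4 below, and the only call was Aqp1, a water channel, at 0.26 ± 0.08 (adjusted p = 0.0495), which passed in 3 of the 19 fits that left out 1 array. Hbb, the beta-globin gene of red blood cells, had a median of 11.52 at the lower doses (10.53 to 12.09) and 10.44 at the higher doses (9.61 to 12.34), and vehicle averaged 11.73. Its difference of 0.93 ± 0.27 (adjusted p = 0.0311) was the largest rise in size, but it was lost without any of 5 higher-dose arrays (200 mg/kg replicates 1, 2 and 3, 500 mg/kg replicates 1 and 3), with adjusted p up to 0.0909 without 200 mg/kg replicate 1, and near-identical globin copies may share its probe set. Of the 8 measured pericyte and smooth muscle markers 5 lay above 0 and 3 below, from -0.13 to 0.62 with a median of 0.09. In this list 2 rose and 0 fell, against 3.01% and 2.87% of all genes. Rgs5 rose by 0.62 ± 0.10 (adjusted p = 0.000629) and Acta2 by 0.38 ± 0.10 (adjusted p = 0.0233, up to 0.0655 without 500 mg/kg replicate 2). Gfap, the astrocyte filament gene, had a difference of 0.50 ± 0.16 (adjusted p = 0.0454) that passed in 5 of the 19 fits that left out 1 array, and vehicle, at 10.61, was above the means of both pools. The other 2 measured reactive astrocyte markers did not pass, with -0.15 for Hspb1 and -0.08 for Vim. Mbp, which encodes myelin basic protein, differed by -0.07 ± 0.05. Above and below 0 lay 10 and 6 excitatory neuron, 7 and 5 interneuron and 7 and 7 resting astrocyte markers. The same counts were 6 and 4 for microglia, 6 and 6 for endothelium, 7 and 3 for meninges and 0 and 3 for hypothalamus. Of these lists only that of excitatory neurons held calls, 1 rise and 1 fall. In the blood list Alas2 (0.62 ± 0.24) and S100a9 (-0.09 ± 0.41) did not pass. The part of tissue makeup in the other differences was not tested.

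The arrays carry probe sets at the 3' and the 5' end of control genes, whose log2 ratio is a sign of RNA and labelling quality. The beta-actin ratio was 1.503 to 1.93 at the lower doses, with a mean of 1.73 ± 0.15 (SD, n = 12), and 2.23 to 2.65 at the higher doses, with a mean of 2.41 ± 0.16 (SD, n = 7). The pools did not overlap. The difference of -0.68 had an exact two-sided permutation p of 1.98e-05, the smallest that the 50388 splits can give (adjusted over the 3 control genes, 5.95e-05). The Gapdh ratio was 0.23 ± 0.12 at the lower doses (0.07 to 0.55) and 0.63 ± 0.16 at the higher doses (0.34 to 0.79), a difference of -0.40 (exact permutation p = 0.000119, adjusted p = 0.000179). Vehicle arrays had 2.50 ± 0.18 for beta-actin and 0.77 ± 0.07 for Gapdh (SD, n = 4), nearer to the higher doses in both. The hexokinase ratio, 1.66 ± 0.28 at the lower doses and 1.84 ± 0.26 at the higher doses, had an exact permutation p of 0.199, but on the deposited values the difference was -0.44 (p = 0.0212). The 4 bacterial RNAs added to the samples in the assay, looked at after the rat genes, differed by 0.14 (dap), 0.17 (thr), -0.09 (phe) and -0.09 (lys), and the smallest adjusted exact permutation p was 0.0781, for thr.

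**Figure D3:**
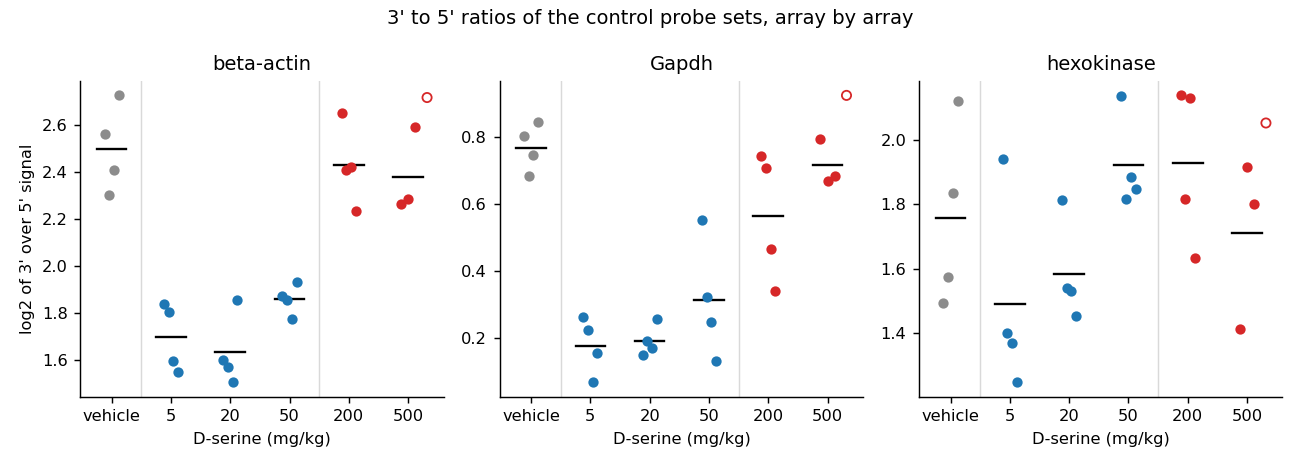
Log2 of the 3' signal over the 5' signal for the controls beta-actin, Gapdh and hexokinase on each array by dose, with vehicle in grey, lower doses in blue, higher doses in red, means as bars and the left-out array as an open circle. The beta-actin ratio is at or below 1.93 on the lower-dose arrays and at or above 2.23 on the higher-dose and vehicle arrays.

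The fit was repeated with the Gapdh ratio and with the beta-actin ratio as a covariate, since both differed between the pools. With the Gapdh ratio limma called 0 of 18625 probe sets, 1485 being below 0.05 unadjusted, and with the beta-actin ratio it called 0, with 638 below 0.05 unadjusted. Over the 1639 probe sets called without a covariate, the median difference in the called direction was 0.32 without it, 0.14 with the Gapdh ratio and 0.11 with the beta-actin ratio. The median standard error was 0.08, 0.13 and 0.18 in the same order, and 1460 and 1295 of the 1639 kept their sign with the Gapdh and beta-actin ratios. Rasgrp1 was 0.40 with the Gapdh ratio, Syt11 0.35, Actr2-ps1 0.48, Rap1gds1 -0.23 and Pex6 -0.80. Syt1 was 0.02, Cyria 0.04, Kpna1 0.06 and Sh3gl2 -0.07. Among arrays of the same pool the Gapdh ratio went with 157 probe sets (0.843%, limma slope). Of these, 104 were also called between pools, as were 1639 of all 18625 probe sets (8.8%). Fewer probe sets, 4, went with the ratio when 50 mg/kg replicate 1 was left out. There were 102 when 200 mg/kg replicate 1 was left out and 61 when 200 mg/kg replicate 3 was.

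**Figure D4:**
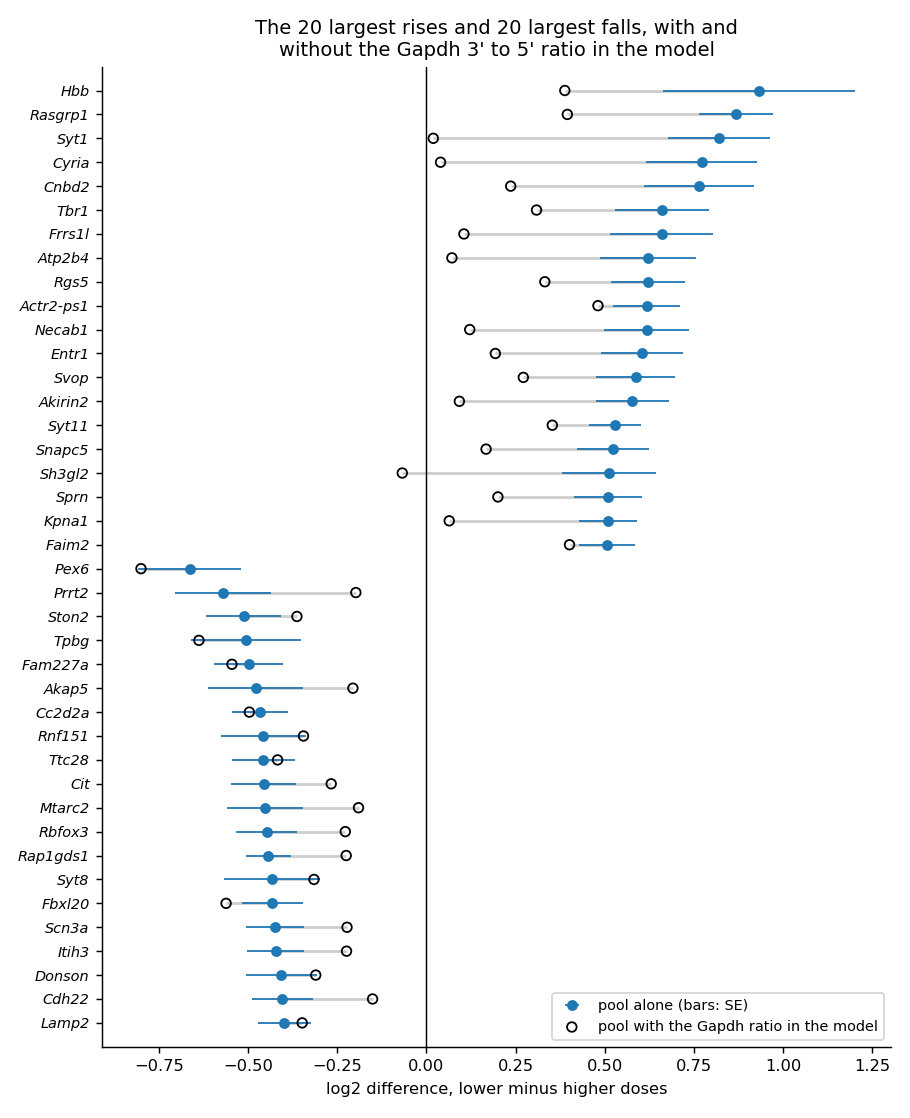
Log2 difference of lower minus higher doses for the 20 largest rises and 20 largest falls, from the model with the pool alone (filled, bars are SE) and with the Gapdh 3' to 5' ratio added (open). Syt1 moves to 0.02 with the ratio in the model, against 0.40 for Rasgrp1 and -0.80 for Pex6.

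Vehicle arrays, which no fit used, lay nearer to the higher doses. In 533 of the 600 called genes (88.8%) the vehicle mean was closer to the higher-dose mean than to the lower-dose mean, against 62.9% of all genes. This held for 278 of the 307 rises and 255 of the 293 falls. Syt1 averaged 9.81 ± 0.34 at the lower doses (SD, n = 12), 8.99 ± 0.35 at the higher doses (SD, n = 7) and 8.48 ± 0.19 in vehicle (SD, n = 4). The beta-actin and Gapdh ratios of vehicle lay on the same side as these genes, and their part was not tested.

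Probe sets of the same gene did not always move together. Of 3481 measured probe sets that were not the brightest of their gene, 545 passed as rises (15.7%) and 87 as falls (2.5%), whereas of the 2630 brightest probe sets of the same genes 72 rose (2.74%) and 108 fell (4.11%). This split was made after seeing the data. Of 104 genes with more than 1 called probe set, 86 had all of them in the same direction and 18 in opposite directions, and in 16 of the 18 the brightest called probe set fell. The 5 genes with the widest gap were chosen for it. Gnb1, the beta subunit of heterotrimeric G proteins, had 1 probe set (1367731_at) at 9.45 on average at the lower doses and 10.18 at the higher doses, a difference of -0.72 ± 0.10 (adjusted p = 0.00014). Its other probe sets differed by 0.48 ± 0.07 (1375705_at, adjusted p = 0.000189) and 0.34 ± 0.08 (1367732_at, adjusted p = 0.00799). Ntrk2, the receptor of the neurotrophin BDNF, differed by -0.51 ± 0.09 on 1370652_at (adjusted p = 0.00136) and by 0.42 ± 0.10 on 1370687_a_at (adjusted p = 0.00751). Ncs1, a neuronal calcium sensor, differed by -0.31 ± 0.06 on 1374103_at (adjusted p = 0.00202) and by 0.58 ± 0.08 on 1387685_at (adjusted p = 0.000109), the last without overlap between pools. Aplp2, a relative of the amyloid precursor protein, and Tcf25 had rises of 0.81 ± 0.11 and 0.66 ± 0.11 on 1 probe set. Their falls of 0.23 and 0.30 on the other passed in 5 and 6 of the 19 fits that left out 1 array, and for Aplp2 the falling probe set differed by 0.07 on the deposited values. Where on the transcripts these probe sets lie was not analysed here.

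**Figure D5:**
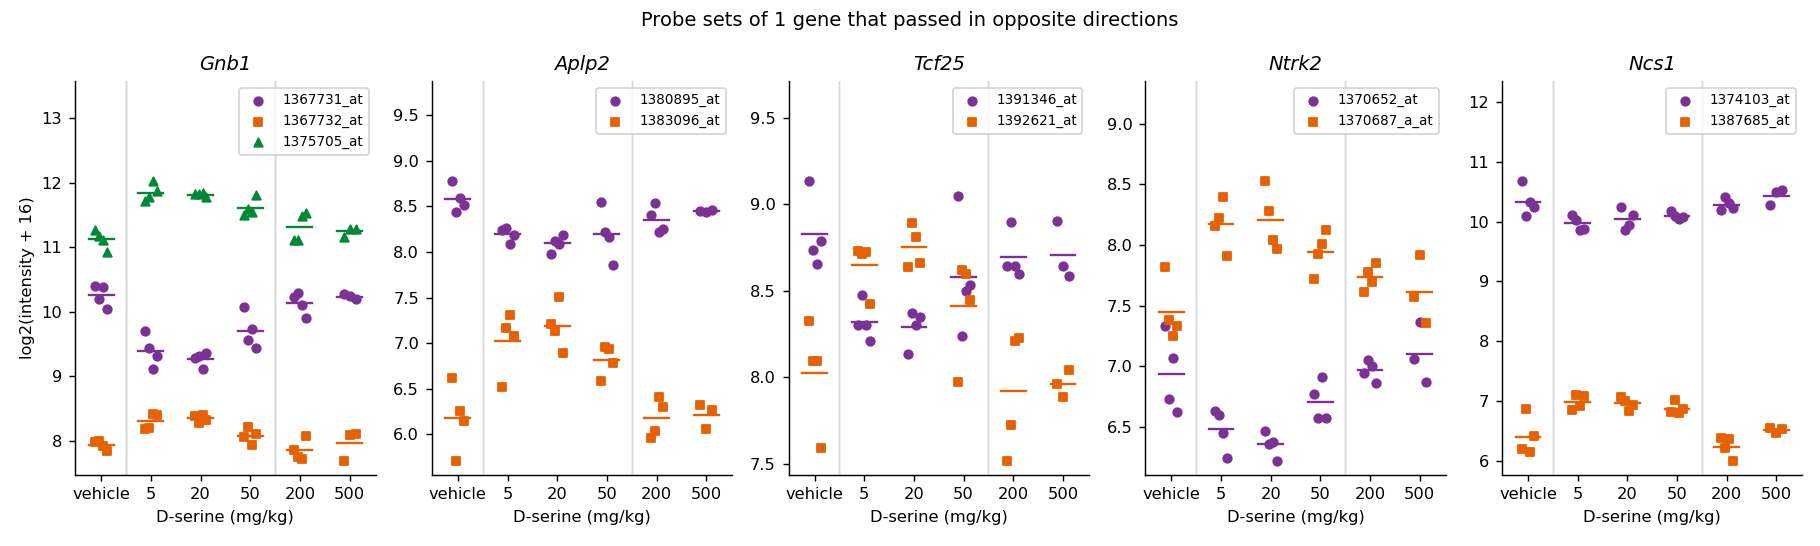
Level of each called probe set of 5 genes on each array, as log2(intensity + 16), by dose, with a colour and a marker for each probe set and means as bars. The left-out array is not drawn. In Gnb1, 1367731_at averages 9.45 at the lower doses and 10.18 at the higher doses, while 1375705_at averages 11.76 and 11.29 in the same order.

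Promoters were looked at because the CRE, the letters TGACGTCA bound by CREB-family factors, is a known site of NMDA receptor signalling to the nucleus. Of the 74 called genes named by rule 61 had a promoter in the RefSeq table of GRCr8, and 4 held the CRE in the 250 bases before the start. Snapc5, Sh3gl2 and Psmb2 rose and Jund fell. The CRE, in capitals, lay 33, 66, 90 and 221 bases before the start of Snapc5, Sh3gl2, Psmb2 and Jund. The sequences run 5' to 3' on the strand of the gene and are shown to place the motif.
Snapc5, chr8:73572253-73572502, plus strand: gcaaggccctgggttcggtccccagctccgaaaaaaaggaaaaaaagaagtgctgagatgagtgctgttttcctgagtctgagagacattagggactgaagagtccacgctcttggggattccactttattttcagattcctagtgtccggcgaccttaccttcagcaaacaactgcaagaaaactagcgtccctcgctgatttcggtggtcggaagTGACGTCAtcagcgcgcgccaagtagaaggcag
Sh3gl2, chr5:104699020-104699269, plus strand: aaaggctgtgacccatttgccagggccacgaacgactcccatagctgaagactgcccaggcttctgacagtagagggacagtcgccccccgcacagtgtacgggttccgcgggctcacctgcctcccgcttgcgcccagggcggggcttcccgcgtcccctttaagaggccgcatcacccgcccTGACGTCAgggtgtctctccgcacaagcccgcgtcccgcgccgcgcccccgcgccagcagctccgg
Psmb2, chr5:144254808-144255057, plus strand: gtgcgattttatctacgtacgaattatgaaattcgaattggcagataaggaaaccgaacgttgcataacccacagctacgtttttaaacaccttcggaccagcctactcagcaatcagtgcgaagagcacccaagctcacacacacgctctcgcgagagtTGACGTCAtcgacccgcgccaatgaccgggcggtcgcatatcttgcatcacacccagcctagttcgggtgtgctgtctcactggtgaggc
Jund, chr16:18769772-18770021, minus strand: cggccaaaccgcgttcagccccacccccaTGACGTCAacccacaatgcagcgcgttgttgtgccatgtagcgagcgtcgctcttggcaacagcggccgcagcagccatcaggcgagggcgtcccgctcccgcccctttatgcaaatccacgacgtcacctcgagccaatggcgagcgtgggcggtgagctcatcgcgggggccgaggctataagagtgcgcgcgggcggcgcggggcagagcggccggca
The CRE reads the same on both strands and was counted over 250 bases before and 50 after each start. It stood in 17 of 258 promoters of genes that rose (6.59%), in 11 of 244 of genes that fell (4.51%), in 3.31% of the 8518 promoters of genes tested and in 1.91% of all 27457 promoters in the table. A match is a description of the letters and not of a bound site. Of these 4 genes, only Snapc5 passed whichever single array was left out. The Psmb2 call (0.20 ± 0.06, adjusted p = 0.0282) was lost without 200 mg/kg replicate 2 or 500 mg/kg replicate 3 (adjusted p up to 0.0849), and those of Sh3gl2 and Jund were lost as given above. Jund, the fall among them, was 0.08 on the deposited values.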

How the data were processed

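Expression was measured on 24 Affymetrix rat arrays, 1 per animal. The deposited values are intensity, 1 linear signal per probe set, made with GCOS, per the submitters' processing notes. For its version and settings nothing is stated in the sources used here. All 24 arrays were quantile normalized and taken as log2(intensity + 16), which understates the change of dim probe sets. Affymetrix controls (57 probe sets) and the dimmest 40%, ranked by mean over the 19 pooled arrays, were left out, leaving 18625. The standard errors of the differences rest on 12 and 7 arrays.

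The pool was the only factor in limma 3.58.1 (R 4.3.3) with an intensity trend and Benjamini-Hochberg adjustment over all 18625 probe sets. The 3' to 5' ratios were compared with exact two-sided permutation tests. The platform annotation gives 1 symbol to 20832 of 31099 probe sets, several to 436 and no symbol to 9831. They were updated through the RefSeq gene table of GRCr8 (20764 by Entrez ID, 2 by accession, 66 kept), and each of 10213 genes is represented by its brightest probe set. Named genes are the 20 largest rises and the 20 largest falls among genes that passed, up to 4 members of each list with the smallest p, and 15 preset genes (such as Grin1, Fos and Gfap) that are named at any value. The members, the cut between doses, the array left out and the lists were chosen with earlier results of these data known. With 200 of 18625 probe sets changed in simulated data of these pools, 80% of those changed by 0.5 and 98% of those changed by 1 (log2) were recovered, with 11 false calls. The simulated noise was independent between probe sets and held no difference in 3' to 5' ratio between pools. Its false calls therefore cannot stand for those in the real arrays. Alternatives were other normalizations, filters, pseudocounts and moderation, array weights, 1 probe set per gene, the ratios as covariates, dose as a block, the left-out array included, and leaving out each array or dose. Figures were drawn with matplotlib 3.10.9 (Python 3.11.15).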

Additional observations from a re-analysis of the deposited data

Results flagged for a closer look

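Sprn had a level of 6.9996 on 200 mg/kg replicate 3, far from the other higher-dose arrays, of which the nearest had 6.64. This was the only sample so marked among 61 groups of values, where chance marks about 1 in 20. Without that array Sprn still passed between the pools. Gabra6, a gene of cerebellar granule cells, stood at 10.73 on the left-out array (500 mg/kg replicate 4), against at most 5.57 on the vehicle arrays. That array enters no comparison here.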

How the results depend on the processing

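The main count of 1639 probe sets stayed within 1.5 times under median centring, normalization over 19 arrays, both filters, both pseudocounts, both other moderations, the left-out array included, equal weight of doses, dose as a random block and without the 50 mg/kg arrays. It was 2630 with array weights, 10247 as deposited, and 459 with 1 probe set per gene, where fewer were tested. It was 0 with the Gapdh ratio, the beta-actin ratio or the Gapdh ratio with Animal #251 in the model. It was 833, 671, 510 and 341 without the 5, 20, 200 and 500 mg/kg arrays, and 1044 to 2190 with 1 array left out. The cause was not tested. The count among pooled doses was 0 to 1 with 1 array left out. The count for the Gapdh ratio within pools was 4 to 208 with 1 array left out and 491 after median centring. With 1 array left out the difference in the beta-actin ratio was -0.71 to -0.64, in the Gapdh ratio -0.45 to -0.37 and in the hexokinase ratio -0.24 to -0.12, and for hexokinase it was -0.44 as deposited.

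Signs turned for some named genes. As deposited, Rab4a was 0.060, Jund 0.081, Ndufb9 0.17, Eno2 0.080, Ddx5 0.058, Luc7l3 0.11, Clk4 0.069, Rbm5 0.087, Aplp2 (1380895_at) 0.073, Larp4b 0.075 and Pdcd11 0.014. With Animal #251, Camk2a was 0.15. With the Gapdh ratio, Sh3gl2 was -0.068, Cacng3 -0.045, Tpi1 -0.015, Aplp2 (1380895_at) 0.12 and Tcf25 (1391346_at) 0.070. With the beta-actin ratio, Hbb was -0.011, Cyria -0.19, Akirin2 -0.096, Sh3gl2 -0.0047, Prrt2 0.078, Syt8 0.14, Cacng3 -0.067, Gabrg1 -0.085, Jund 0.11, Kcnq3 -0.020, Tpi1 -0.12, Msmo1 -0.0078 and Ntrk2 (1370687_a_at) -0.025. With the Gapdh ratio and Animal #251, Syt1 was -0.16, Cyria -0.17, Cacng3 -0.40, Gabra4 -0.062, Tpi1 -0.045, Rbm5 0.0033, Aplp2 (1380895_at) 0.27, Tcf25 (1391346_at) 0.075 and Ntrk2 (1370687_a_at) -0.17. Of the 74 called genes named by rule, 51 passed whichever array was left out and 19 whichever dose was; Pex6 and Syt8 were tested in 4 of the 5 fits without a dose. No paired analysis was possible because each animal has its own number and the groups share none.

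The beta-actin ratio did not overlap between pools, and for Gapdh 1 lower-dose array (0.55) lay above 2 higher-dose arrays (0.46 and 0.34). Animal number, dose pool and these ratios go together in these arrays and cannot be told apart. Scan and labelling batches were not used here. Dim probe sets near the filter are compressed by the pseudocount. Some called genes had a mean below the filter level of 5.98 in 1 pool and were tested only through the other. Among them were Pex6 and Syt8 at the lower doses (5.82 and 5.89). At the higher doses Tbr1, Cnbd2 and Kcnj9 were (5.84, 5.91 and 5.94).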

Other observations

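Several genes of the fixed lists had a dimmer probe set that rose while the brightest probe set did not pass, and these were chosen after their values were seen. Of all 3481 measured probe sets that were not the brightest of their gene, 15.7% rose and 2.5% fell. Other genes of the lists had dimmer probe sets that did not pass. Klc1, a light chain of the kinesin motor, differed by 0.97 ± 0.14 (adjusted p = 0.000202) on 1 dimmer probe set and by -0.10 ± 0.07 on another dimmer one. Rab11b, a GTPase of recycling endosomes, differed by 0.68 ± 0.07 (adjusted p = 8.65e-06) on its second probe set. Slc1a3, the astrocyte glutamate transporter, differed by 0.70 ± 0.13 (adjusted p = 0.00172) on 1 dimmer probe set and by 0.00 ± 0.11 on another dimmer one. Rab5a of early endosomes differed by 0.45 ± 0.09 (adjusted p = 0.00277) on its second probe set. Dnajc5, a chaperone of synaptic vesicles, differed by 0.39 ± 0.06 and 0.38 ± 0.09 on 2 dimmer probe sets. The brightest probe sets differed by -0.12 (Klc1), 0.13 (Rab11b), 0.11 (Slc1a3), -0.18 (Rab5a) and 0.10 (Dnajc5), and none of these passed. Which end of each transcript these probe sets read was not analysed here.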
